A study of Mus musculus with 15 samples.

Results

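The genes described here are the 3 MYC family genes Mycn, Myc and Mycl, their partner Max, the D cyclins Ccnd1, Ccnd2 and Ccnd3 and the kinases Cdk4 and Cdk6. They were chosen by name, and each is the only gene symbol of 1 row on the array. All 9 were measured, among 22180 genes in all. They were read on 15 arrays, 1 per library, of RNA from cerebella of newborn C57BL/6 mice, whose age is labelled P1 while the growth protocol says P2 (postnatal days). Values are log2 expression, so a difference of 1 is a doubling or a halving, and they cannot be compared between genes.

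The libraries fall into 3 groups of 5 by their titles. The libraries labelled DKO (double knockout) are described as lacking Gsk-3 alpha and Gsk-3 beta, the isoforms of the kinase Gsk-3, in cerebellar granule neuron progenitors. The Math1-Cre control is described as carrying Cre, 1 altered Gsk3a allele (Gska+-) and floxed Gsk3b (GskBff), with Gsk-3 beta alone deleted. The no-Cre control is described as intact, with the same Gska+- and GskBff alleles and no Cre. The description of no-Cre 5 leaves out the Gsk3b genotype, and those of the DKO libraries spell out no alleles. Math1 (Atoh1) drives Cre in granule neuron progenitors and other cells of the Atoh1 lineage, so the remaining cells of the cerebellum keep their kinases. Per the design text, progenitors were enriched on a density gradient, and Atoh1, their defining transcription factor, was measured at 7.81 to 8.65 in the libraries labelled DKO, 8.03 to 9.09 in Math1-Cre and 8.94 to 9.31 in no-Cre. In such bulk RNA, fewer cells of a type and less RNA per cell cannot be told apart. The labels name each library as 1 replicate and give no litter, so the spread behind the p-values is that between these samples and may be partly technical.

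Granule neuron progenitors divide in response to Sonic hedgehog (SHH). SHH signalling raises Mycn, Ccnd1 and Ccnd2 in these cells. MYC proteins bind E-box DNA as dimers with MAX. D cyclins bind CDK4 or CDK6, and the complexes phosphorylate the retinoblastoma protein RB, which frees E2F factors to switch on genes of DNA replication. Gsk-3 phosphorylates MYC, MYCN and cyclin D1 and so marks them for degradation, while it also phosphorylates beta-catenin, the effector of WNT signalling. These arrays measured mRNA and not the proteins.

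Before the members, the deleted genes were read as a check of the labels. The row annotated to Gsk3a, which it shares with 9130221H12Rik, lay below 9.0 in DKO 2, 4 and 5 (7.89 to 8.27) and in Math1-Cre 1 and 2 (8.03 and 8.25). It lay at 9.37 to 9.59 in the other 10 libraries, among them DKO 1 and 3. So 4 libraries went against their label, and all names here are those of the labels. Gsk3b averaged 10.78 in DKO, 10.78 in Math1-Cre and 10.77 in no-Cre, and whether its probes fall in the deleted part of the gene is not known here, so it checks nothing. Each comparison is therefore given over all 15 libraries and over the 11 that remain without DKO 1, DKO 3, Math1-Cre 1 and Math1-Cre 2. Those 11 were selected by the measured Gsk3a row, and the limma p-values over them make no allowance for that selection. On 4 arrays, those of DKO 3, 4 and 5 and no-Cre 4, the spread over genes was narrow, with an interquartile range of 4.00 to 4.12 log2. On the others it was 4.22 to 4.40. Correlations between libraries over genes were 0.981 to 0.997.

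Mycn was the 1 gene of the 9 whose DKO and no-Cre libraries did not overlap. Mycn, the MYC family gene that SHH induces in these progenitors, had 7.26, 6.69, 7.17, 6.98 and 7.11 in DKO 1 to 5. In Math1-Cre 1 to 5 it had 6.85, 6.82, 7.83, 7.56 and 7.49, and in no-Cre 1 to 5 7.81, 7.52, 7.39, 7.53 and 7.58. Every DKO library lay below every no-Cre library, as was the case for 1.96% of all genes (0.622% lay wholly higher), and the Math1-Cre libraries fell into a low pair and a high trio. The group means were 7.04 ± 0.22, 7.31 ± 0.46 and 7.57 ± 0.15 (SD, n = 5 each) in DKO, Math1-Cre and no-Cre. DKO minus no-Cre was -0.52 ± 0.17 (SE), 1.44-fold lower, and did not pass the threshold of 0.05 over all genes (limma adjusted p = 0.159). Against Math1-Cre no member separated from DKO, where 5.51% of all genes lay wholly lower and 1.45% wholly higher.

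Over the 11 libraries, which were selected by the Gsk3a row, Mycn passed. It averaged 6.93 ± 0.21 in DKO (SD, n = 3), 7.63 ± 0.18 in Math1-Cre (n = 3) and 7.57 ± 0.15 in no-Cre (n = 5). DKO minus no-Cre was -0.64 ± 0.12 (SE), 1.56-fold lower (limma adjusted p = 0.0296), and DKO minus Math1-Cre was -0.70 ± 0.14, 1.63-fold lower (limma adjusted p = 0.0489), with all 3 DKO libraries below every control library. Of all genes 4.9% lay wholly below no-Cre in these DKO libraries and 16.9% wholly below Math1-Cre. Mycn was the 1 member of 9 called in DKO minus no-Cre and in DKO minus Math1-Cre. Of all genes 1.08% were called for DKO minus no-Cre (0.437% higher, 0.64% lower) and 0.541% for DKO minus Math1-Cre (0.289% higher, 0.252% lower). The call against no-Cre was lost without DKO 2 (adjusted p = 0.0899), DKO 4 (0.111), Math1-Cre 4 (0.0506) or no-Cre 1, 2 or 5 (0.0632, 0.0765 and 0.0804). The call against Math1-Cre held without no-Cre 1 or 4 and was lost without any of the other 9 libraries in turn, with adjusted p of 0.0366 to 0.163 over these fits. Both calls were also lost after quantile normalization, where the Mycn differences were -0.59 and -0.60 (limma adjusted p = 0.0732 and 0.138), and after centring each array on its median (-0.54 and -0.56, limma adjusted p = 0.0857 and 0.138).

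Myc and Mycl, the other family members, showed no call. Myc, the family member that WNT signalling is known to induce in other tissues, had 7.07, 7.52, 6.93, 7.39 and 7.39 in DKO 1 to 5. It had 7.35, 7.20, 7.25, 7.44 and 6.87 in Math1-Cre 1 to 5 and 7.15, 7.20, 7.37, 7.12 and 7.01 in no-Cre 1 to 5. The 3 groups overlapped over 15 libraries, while over 11 the 3 DKO libraries (7.39 to 7.52) lay just above the no-Cre libraries (7.01 to 7.37). Of all genes 2.3% lay wholly above no-Cre there and 4.9% wholly below. The difference from no-Cre was +0.09 ± 0.12 over 15 libraries and +0.26 ± 0.12 over 11 (limma adjusted p = 0.726 and 0.410). Its sign was thus opposite to that of Mycn; whether the 2 genes differ from each other in this was not tested.

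Mycl, a family member of narrower expression, ran from 6.31 to 6.81 in DKO, from 6.72 to 6.91 in Math1-Cre and from 6.58 to 6.93 in no-Cre. Of the 5 DKO libraries 4 lay below the lowest Math1-Cre library, and DKO 3 did not. Its differences of -0.25 ± 0.09 from Math1-Cre and -0.23 ± 0.09 from no-Cre did not pass (limma adjusted p = 0.128 and 0.210). In the 11 libraries they were -0.35 ± 0.11 and -0.31 ± 0.10 (limma adjusted p = 0.197 and 0.205).

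Max, the shared partner of the family, had the narrowest range of the 9 genes, 0.35 over all libraries, and 5 libraries held the same deposited value to its last digit, 9.77 when rounded (DKO 2 to 5 and Math1-Cre 2). Its means were 9.76, 9.75 and 9.78 in DKO, Math1-Cre and no-Cre, and its differences between groups were at most 0.03 in size in either set of libraries. Such exact ties of 5 or more libraries occurred in 1.98% of genes.

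**Figure D1:**
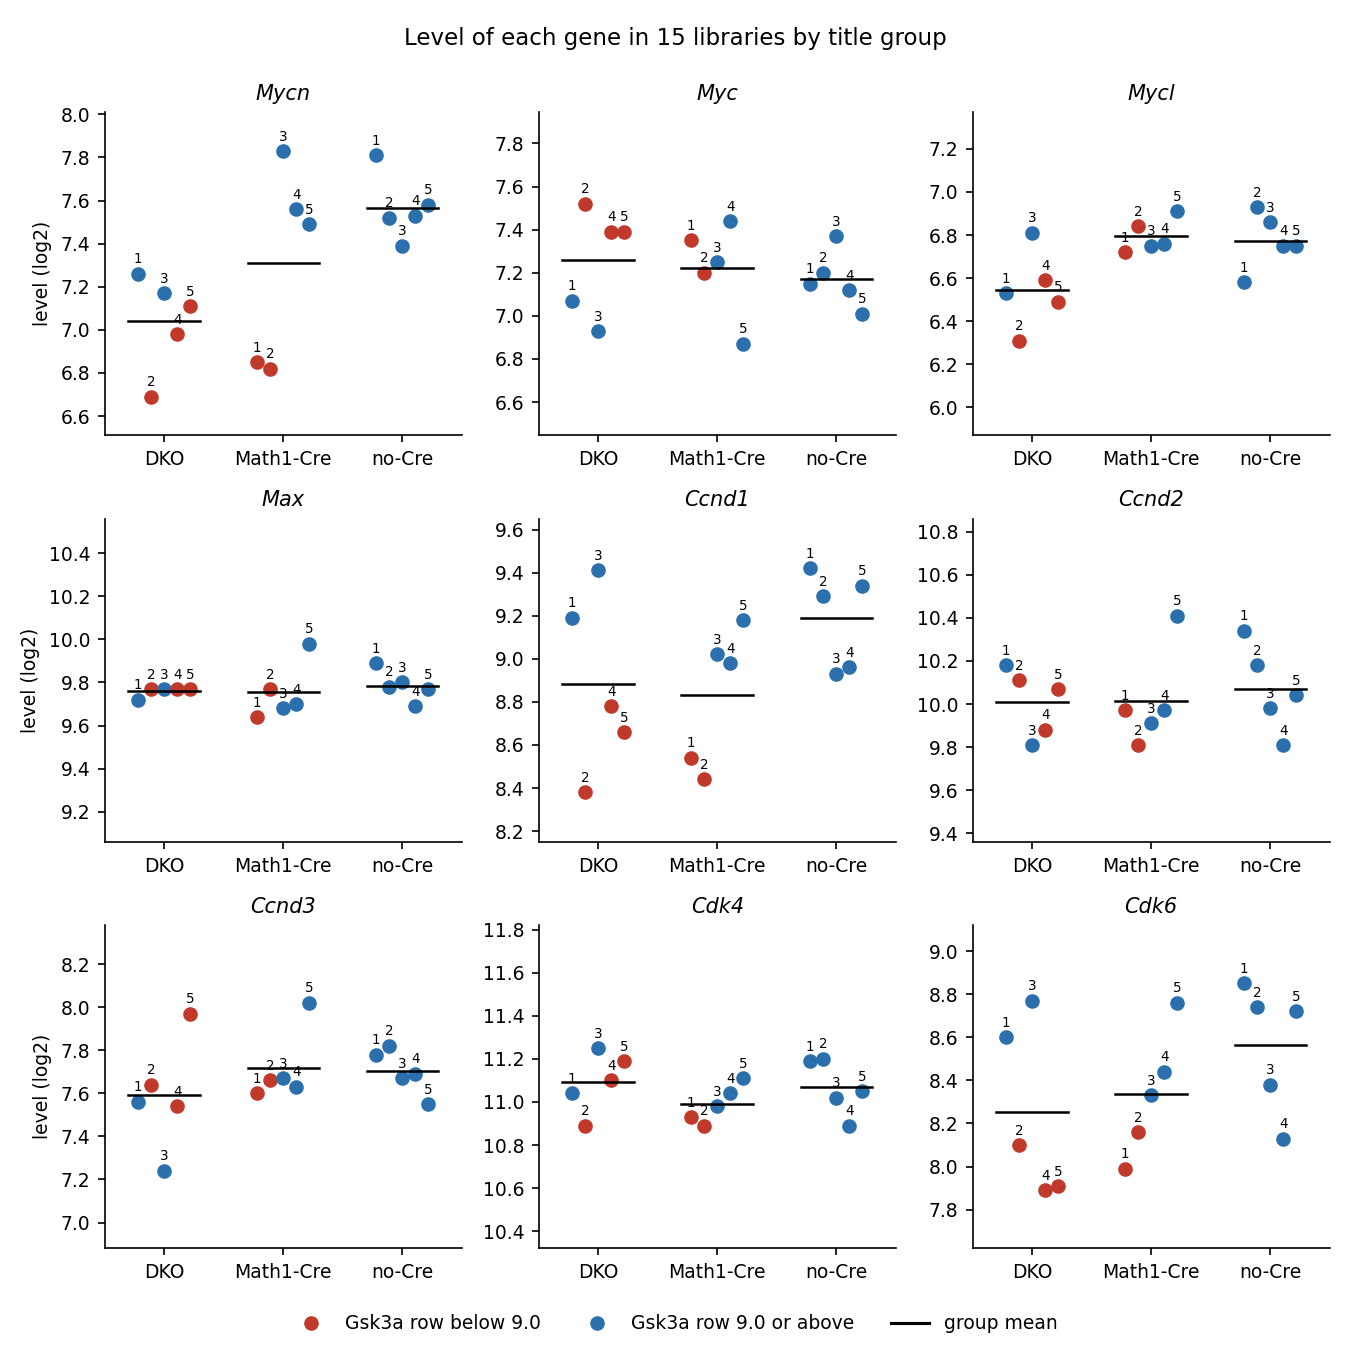
Each panel plots the log2 level of 1 gene in the libraries labelled DKO, Math1-Cre and no-Cre, with the replicate number beside each point, the group mean as a bar, and a y axis of the same length in every panel. Libraries with a Gsk3a row below 9.0 (red; the others blue) lie at the foot of the Mycn, Ccnd1 and Cdk6 panels and are spread through those of Max, Ccnd2, Ccnd3 and Cdk4.

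Ccnd1 split within the groups labelled DKO and Math1-Cre, and Cdk6 within the group labelled DKO. Ccnd1, which encodes cyclin D1, had 9.19, 8.38, 9.41, 8.78 and 8.66 in DKO 1 to 5. It had 8.54, 8.44, 9.02, 8.98 and 9.18 in Math1-Cre 1 to 5 and 9.42, 9.29, 8.93, 8.96 and 9.34 in no-Cre 1 to 5. DKO 1 and 3 lay within the no-Cre range, while DKO 2, 4 and 5 and Math1-Cre 1 and 2 lay below it. By label the differences were -0.31 ± 0.19 from no-Cre and +0.05 ± 0.19 from Math1-Cre, and neither passed (limma adjusted p = 0.411 and 0.894).

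In the 11 libraries Ccnd1 averaged 8.61 ± 0.21 in DKO (SD, n = 3), 9.06 ± 0.11 in Math1-Cre (n = 3) and 9.19 ± 0.23 in no-Cre (n = 5). The 3 DKO libraries lay below every control library, by -0.58 ± 0.14 (1.50-fold) from no-Cre and -0.45 ± 0.15 (1.37-fold) from Math1-Cre. Neither difference passed over all genes (limma adjusted p = 0.0743 and 0.211). With these few libraries 4.9% of all genes lay wholly below no-Cre and 2.3% wholly above, and 16.9% lay wholly below Math1-Cre and 7.48% wholly above. Without no-Cre 4, a narrow array, the difference from no-Cre was -0.64 and did pass (limma adjusted p = 0.0257), where 4.78% of all genes were called. Of 11 fits that each left out 1 library, only that 1 passed, with limma adjusted p up to 0.18.

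Ccnd2, which encodes the cyclin D2 that is also a target of SHH signalling in these cells, ran from 9.81 to 10.18 in DKO, 9.81 to 10.41 in Math1-Cre and 9.81 to 10.34 in no-Cre. The 3 ranges began at the same level, and the differences from no-Cre were -0.06 ± 0.12 over 15 libraries and -0.05 ± 0.14 over 11 (limma adjusted p = 0.818 and 0.906). Ccnd3, the remaining D cyclin gene, ran from 7.24 to 7.97 in DKO, 7.60 to 8.02 in Math1-Cre and 7.55 to 7.82 in no-Cre. Its lowest library was DKO 3 and its highest Math1-Cre 5, and the difference from no-Cre was -0.11 ± 0.12 over 15 libraries and +0.01 ± 0.12 over 11 (limma adjusted p = 0.637 and 0.972).

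Of the kinases, Cdk6 had 8.60, 8.10, 8.77, 7.89 and 7.91 in DKO 1 to 5. It had 7.99, 8.16, 8.33, 8.44 and 8.76 in Math1-Cre 1 to 5 and 8.85, 8.74, 8.38, 8.13 and 8.72 in no-Cre 1 to 5. The same 5 libraries as for Ccnd1 were low, and no-Cre 4 lay among them. The difference from no-Cre was -0.31 ± 0.19 over 15 libraries (limma adjusted p = 0.404) and -0.60 ± 0.16, 1.52-fold lower, over 11 (limma adjusted p = 0.123), and from Math1-Cre it was -0.08 ± 0.19 and -0.55 ± 0.18 (limma adjusted p = 0.812 and 0.208). Without no-Cre 4 the difference from no-Cre over the remaining 10 libraries was -0.71 (limma adjusted p = 0.0178), where 4.78% of all genes were called. Of 11 fits that each left out 1 library, only that 1 passed, with limma adjusted p up to 0.358. With array spread as covariate the 11-library differences were -0.39 from no-Cre and -0.26 from Math1-Cre (limma adjusted p = 0.333 and 0.729). With array weights they were -0.73 and -0.52 (limma adjusted p = 0.0104 and 0.0422), where 9.8% and 9.01% of all genes were called.

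Cdk4, the other partner of the D cyclins, ran from 10.89 to 11.25 in DKO, 10.89 to 11.11 in Math1-Cre and 10.89 to 11.20 in no-Cre. The 3 ranges again began at the same level. Its differences over the 11 libraries were -0.01 ± 0.10 from no-Cre and +0.02 ± 0.11 from Math1-Cre (limma adjusted p = 0.979 and 0.944).

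As a set, 0 of 9 genes passed in limma for DKO minus no-Cre over 15 libraries (2 at an unadjusted p under 0.05, Mycn and Mycl, against 17.4% of all genes), where 0.0721% of all genes were called (0.018% higher, 0.0541% lower). For DKO minus Math1-Cre 0 of 9 passed (1 at an unadjusted p under 0.05, Mycl, against 23% of all genes), where 0.55% of all genes were called (0.131% higher, 0.419% lower). In each 11-library comparison of DKO, 4 of 9 had an unadjusted p under 0.05, Mycn, Ccnd1, Cdk6 and Mycl, against 12.7% of all genes for DKO minus no-Cre and 15.9% for DKO minus Math1-Cre. The median difference over the 9 genes was -0.05 and -0.08 there, beside -0.023 and -0.060 over all genes. These comparisons share libraries, so their results are not independent of each other.

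The comparison of the 2 controls asks what Cre and the loss of Gsk-3 beta do together. No member passed in limma over 15 or 11 libraries, none had an unadjusted p under 0.05, and 0% of all genes were called. The groups overlapped for 9 of 9 genes, where 0.207% of all genes lay wholly lower in Math1-Cre and 0.343% wholly higher. Over 15 libraries Ccnd1 differed by -0.36 ± 0.19, Mycn by -0.26 ± 0.17 and Cdk6 by -0.23 ± 0.19. Over the 11 libraries, which leave out the Math1-Cre libraries with a low Gsk3a row, the same genes differed by -0.13 ± 0.14, +0.06 ± 0.12 and -0.05 ± 0.16.

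**Figure D2:**
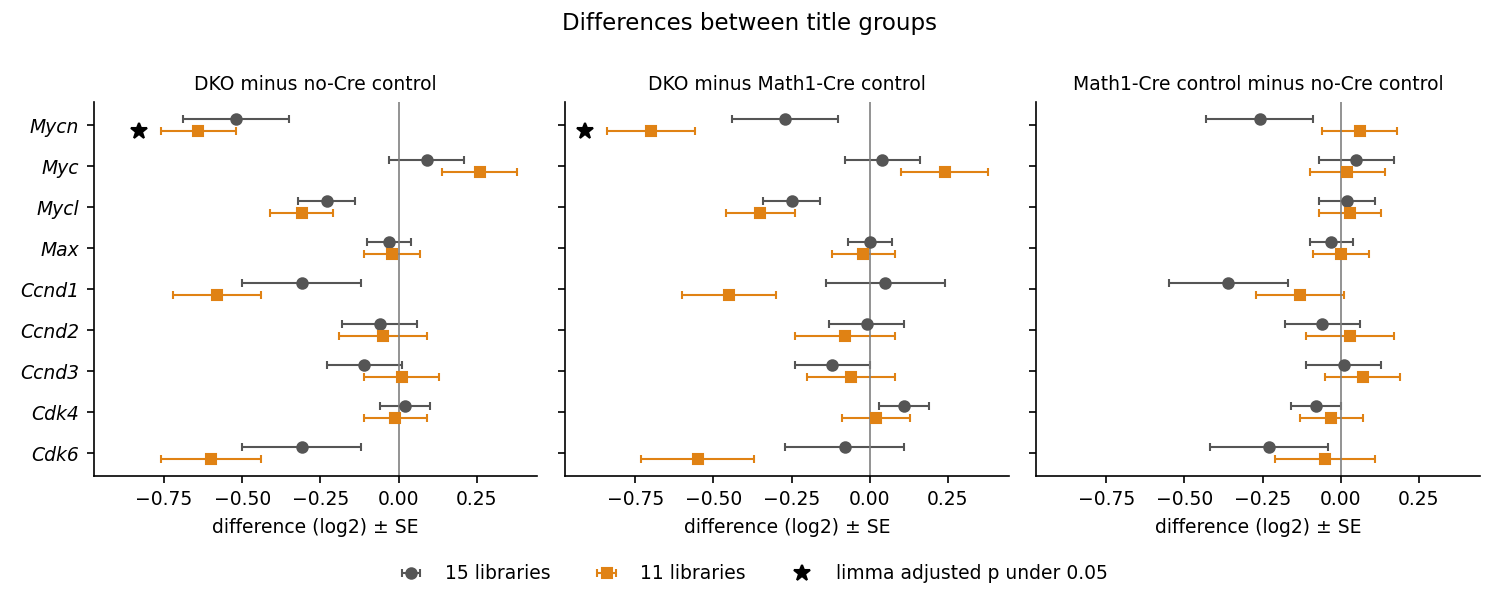
The difference of each gene between title groups (x axis, log2, with the SE of the limma fit) is shown over 15 libraries (circles) and over 11 (squares), with a star where the limma adjusted p was under 0.05. Both stars belong to Mycn over the 11 libraries, at -0.64 and -0.70; Ccnd1 and Cdk6 stand at -0.45 to -0.60 there without a star.

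Set out by the Gsk3a row rather than by the label, 2 of the 9 genes separated the 5 low from the 10 high libraries in the deposited values. This is a description with no test, because the sets come from a measured row. Mycn had 6.69, 6.85 and 7.11 as lowest, median and highest value in the low libraries, and 7.17, 7.53 and 7.83 in the high ones. Ccnd1 had 8.38, 8.54 and 8.78 in the low libraries, and 8.93, 9.18 and 9.42 in the high ones. The gap between the sets was 0.06 for Mycn and 0.15 for Ccnd1, and 0.843% of all genes lay wholly lower in the low libraries and 0.663% wholly higher. After centring each array on its median, Ccnd1 no longer separated the sets. DKO 4 (8.78, array median 5.54) then lay above no-Cre 3 (8.93, array median 5.71).

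Cdk6 overlapped by 1 library in the deposited values and separated the sets after that centring. It had 7.89, 7.99 and 8.16 in the low libraries, and 8.13, 8.66 and 8.85 in the high ones, where no-Cre 4 was the lowest. The medians of Mycn, Ccnd1 and Cdk6 were lower in the low libraries by nearly the same amount, with differences of -0.68, -0.64 and -0.67. The next were Mycl at -0.17 and Cdk4 at -0.12, while Ccnd2, Ccnd3 and Max lay between -0.04 and 0.00. Myc was the 1 member with a higher median in the low libraries, by +0.25, and its sets overlapped, at 7.20 to 7.52 in the low libraries and 6.87 to 7.44 in the high ones.

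Among the 10 libraries with Cre, Mycn, Ccnd1 and Cdk6 separated the 5 low from the 5 high libraries, 3 of 9 genes against 1.8% of all genes wholly lower and 0.987% wholly higher. Their median differences there were -0.65, -0.64 and -0.61. Against the no-Cre libraries alone the low libraries separated for 2 of 9 genes, Mycn and Ccnd1, where 1.89% of all genes lay wholly lower and 1.1% wholly higher. The 5 high libraries with Cre overlapped the no-Cre libraries for 9 of 9 genes, where 0.158% of all genes lay wholly lower and 0.252% wholly higher. Median differences of these high Cre libraries from no-Cre ran from -0.12 for Cdk6 to +0.01 for Mycl.

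DKO 1 and 3 differed between Mycn on the one hand and Ccnd1 and Cdk6 on the other. Both libraries have a high Gsk3a row. Their Mycn values of 7.26 and 7.17 were the lowest of the 10 high libraries, while their Ccnd1 (9.19 and 9.41) and Cdk6 (8.60 and 8.77) lay within the range of the others. Atoh1 was also lowest there among the 10, at 8.54 and 8.57, and ran from 8.94 to 9.31 in the rest.

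Without the 4 narrow arrays, a split chosen after seeing the data, 3 low libraries (DKO 2, Math1-Cre 1 and 2) and 8 high ones remained, and 4 members separated them, where 3.62% of all genes lay wholly lower and 2.09% wholly higher. Mycn was 6.69 to 6.85 in the low libraries and 7.26 to 7.83 in the high ones, Ccnd1 8.38 to 8.54 and 8.93 to 9.42, Cdk6 7.99 to 8.16 and 8.33 to 8.85. Cdk4 was 10.89 to 10.93 in the low libraries and 10.98 to 11.20 in the high ones. Leaving out libraries can only keep or widen a gap between sets and cannot lower the number of members that separate. The wider gaps for Mycn and Ccnd1 are therefore no test of array spread.

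**Figure D3:**
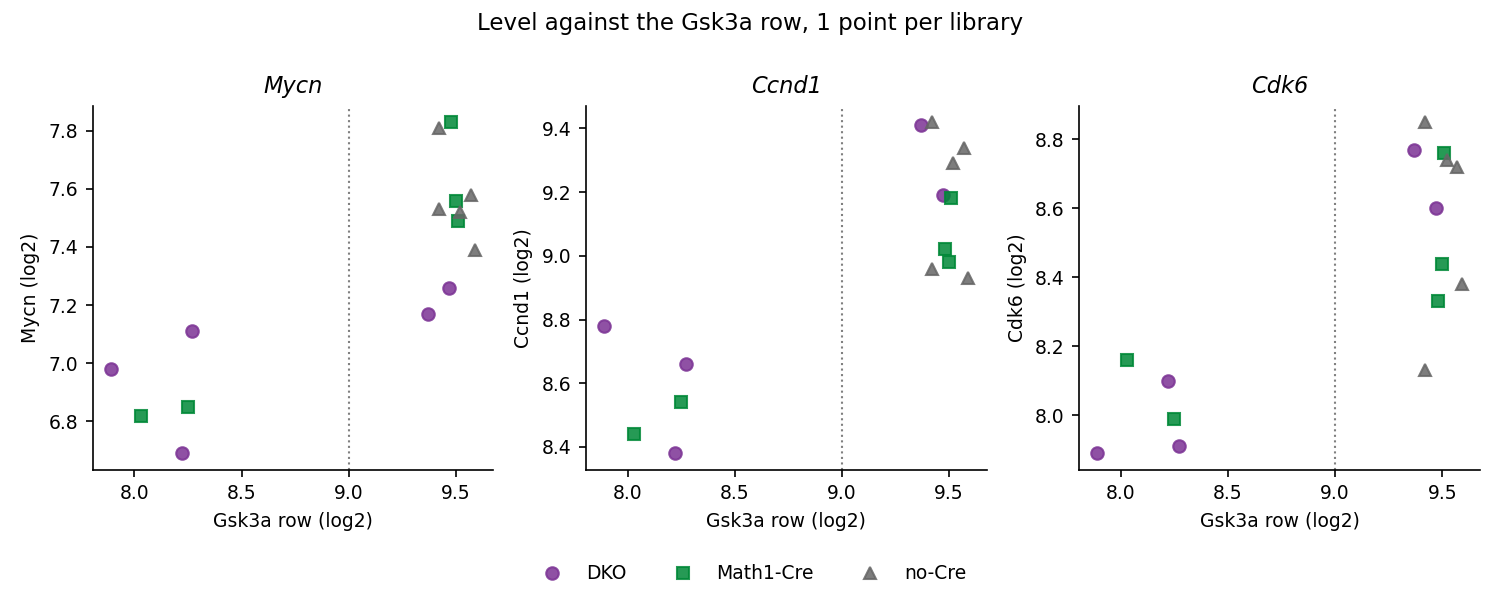
The log2 level of Mycn, Ccnd1 and Cdk6 (y axes) is plotted against the Gsk3a row (x axis, log2), 1 point per library with a shape and colour for each title group, and a dotted line at 9.0. For Mycn and Ccnd1 the 5 points left of the line lie below every point to its right; for Cdk6 4 of the 5 do, and Math1-Cre 2 (8.16) lies just above no-Cre 4 (8.13).

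The mean log2 level of progenitor markers moved with these members, but unevenly from marker to marker. The mean level over 8 of 8 progenitor markers was 8.53 to 8.70 in the 5 low libraries and 8.91 to 9.24 in the high ones, with none of the 8 near background. Their summed level, which the most abundant markers dominate, overlapped, at 12.54 to 12.65 in the low libraries and 12.62 to 12.90 in the high ones (log2). Of the 8 markers, only Nhlh1, a transcription factor of early granule neurons, separated the sets (7.23 to 7.56 in the low libraries, 8.13 to 8.94 in the high ones). Its difference of medians, low minus high, was the largest, at -1.16. Atoh1, Gli1 and Barhl1 overlapped at -0.63, -0.50 and -0.50. Sfrp1, Pax6, Zic2 and Zic1 overlapped at -0.24, -0.20, -0.05 and +0.02. The ranges of Zic1 were 11.24 to 11.47 in the low libraries and 11.12 to 11.51 in the high ones. The part of progenitor content in the results for Mycn, Ccnd1 and Cdk6 was not tested. The mean level of differentiating granule neuron markers was 7.76 to 7.98 in the low libraries and 7.76 to 8.09 in the high ones. Single markers went different ways. In DKO minus no-Cre over 15 libraries Neurod1 differed by -0.68 ± 0.13, Grin2c by -0.78 ± 0.22 and Gabra6 by +1.01 ± 0.51. None passed (limma adjusted p = 0.0611, 0.124 and 0.313). Grin2c in DKO (mean 3.98) and Gabra6 in no-Cre (3.70) were near background. The other markers of this list differed by -0.26 to -0.01. Ranges of low and high libraries also overlapped for markers of astrocytes and Bergmann glia (8.50 to 8.78 and 8.28 to 8.74), endothelial cells (7.18 to 7.55 and 6.99 to 8.01), meningeal cells and pericytes (7.05 to 7.78 and 6.76 to 8.05), choroid plexus (8.07 to 8.83 and 7.67 to 8.85), hindbrain outside the cerebellum (4.16 to 4.64 and 3.70 to 5.52) and microglia (5.09 to 5.69 and 4.83 to 5.69). Likewise they overlapped for oligodendrocyte, Purkinje cell, interneuron, and unipolar brush cell and nuclei markers. None of the 4 erythroid markers had a row of its own.

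The SHH pathway itself, the mitogen input to these genes, showed no called gene. Of 8 measured SHH genes 0 passed in limma in any comparison over 15 or 11 libraries, and 0 of 8 separated the low from the high libraries. For DKO minus no-Cre over 11, 2 had an unadjusted p under 0.05, against 12.7% of all genes. Of all genes at most 1.08% were called in any of these comparisons, and 0.843% lay wholly lower and 0.663% wholly higher in the low libraries. Gli1, the transcription factor gene that reports SHH activity, had 5.64 to 6.26 in the low libraries and 6.15 to 6.79 in the high ones. Its difference from no-Cre over the 11 libraries was -0.40 ± 0.17 (limma adjusted p = 0.366). Ptch1, the SHH receptor gene and a further target, had 9.91 to 10.09 in the low libraries and 9.83 to 10.26 in the high ones, and differed by -0.09 ± 0.11 (limma adjusted p = 0.777).

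Most WNT feedback genes ran the other way. In DKO against no-Cre over the 11 libraries 8 of 11 were higher and 0 lower in limma, with a median difference of +1.17. Of all genes 0.437% were called higher and 0.64% lower there. Over 15 libraries 0 of 11 passed (6 at an unadjusted p under 0.05, against 17.4% of all genes), where 0.0721% of all genes were called. Axin2, a negative feedback gene of the pathway, was 8.14 to 8.52 in the low libraries and 6.86 to 7.14 in the high ones. Lef1, a transcription factor of the pathway, was 8.62 to 9.00 and 6.54 to 7.31. Lgr5, a receptor gene of the pathway, had the opposite sign, at 6.41 to 6.58 in the low libraries and 6.39 to 7.37 in the high ones, and differed by -0.69 ± 0.16 from no-Cre over the 11 libraries (limma adjusted p = 0.0657). Ccnd1, in other tissues a known WNT target, was low in the libraries where these genes were high, and Myc overlapped.

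Downstream of the D cyclins, genes of the RB and E2F axis were lower in the libraries with a low Gsk3a row. All 16 measured genes had a lower median there, against 53.2% of all genes, with a median difference of -0.30. Of the 16, 4 lay wholly below the high libraries, against 0.843% of all genes. E2f8 and E2f7, repressors that are themselves E2F targets, had medians of 6.66 and 7.00 in the low libraries and 7.32 and 7.38 in the high ones. E2f2, an activator, had 4.45 and 5.07, and Ccna2, the cyclin of S phase, 9.26 and 9.74. In DKO minus no-Cre over the 11 libraries 4 of 16 were lower in limma, E2f2 (-0.64 ± 0.11, adjusted p = 0.0171), Ccna2 (-0.53 ± 0.10, adjusted p = 0.0305), E2f8 (-0.76 ± 0.16, adjusted p = 0.0454) and Tfdp2, an E2F partner (-0.66 ± 0.14, adjusted p = 0.0454). Of all genes 0.64% were called lower in that comparison. Against Math1-Cre 1 of 16 passed, E2f2 (-0.74 ± 0.12, limma adjusted p = 0.0239), where 0.252% of all genes were called lower. Over 15 libraries 0 of 16 passed in each comparison, where 0.0721% of all genes were called for DKO minus no-Cre and 0.55% for DKO minus Math1-Cre. At an unadjusted p under 0.05 there were 8 for DKO minus no-Cre and 1 for DKO minus Math1-Cre, against 17.4% and 23% of all genes. The level of E2f2 in the low libraries, 4.34 to 4.56, was near that of olfactory and vomeronasal receptor genes on these arrays (medians of 3.49 to 4.11), which stands for background, so its difference can be understated.

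Among genes of cell cycle progression 11 of 11 had a lower median in the low libraries, against 53.2% of all genes, with a median difference of -0.58. Of the 11, 4 lay wholly below the high libraries, against 0.843% of all genes. Mki67, the proliferation marker, was 8.57 to 9.01 in the low libraries and 9.17 to 9.80 in the high ones. Top2a, a topoisomerase of dividing cells, was 8.44 to 8.77 and 9.01 to 9.41. Top2a (-0.64 ± 0.12, limma adjusted p = 0.0263) and Mcm3, a subunit of the replicative helicase (-0.84 ± 0.16, limma adjusted p = 0.0279), were the 2 of 11 called lower in DKO than in no-Cre over the 11 libraries, while Mki67 was not (-0.64 ± 0.16, limma adjusted p = 0.0980). In DKO minus no-Cre over the 11 libraries 0.64% of all genes were called lower. Against Math1-Cre over the same libraries 0 of 11 passed, where 0.252% of all genes were called lower. Over 15 libraries 0 of 11 passed in each comparison. At an unadjusted p under 0.05 there were 10 for DKO minus no-Cre and 1 for DKO minus Math1-Cre, against 17.4% and 23% of all genes. Median differences, low minus high, were -0.61 for Mki67 and -0.78 for Mcm3, beside -0.64 to -0.68 for Mycn, Ccnd1 and Cdk6.

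In the MYC network beyond these members, of 9 partner genes of MAX and its relative MLX, 1 passed in limma over the 11 libraries, Mxd3. Of all genes 1.08% were called against no-Cre there and 0.541% against Math1-Cre. Mxd3 encodes a MAX partner that represses at E-boxes, known from dividing granule neuron progenitors. Mxd3 was 4.89 to 5.36 in the low libraries and 5.47 to 5.83 in the high ones, and fell by 0.66 ± 0.10 against no-Cre and by 0.65 ± 0.11 against Math1-Cre (limma adjusted p = 0.00782 and 0.0268). The other partners, such as Mnt (6.80 to 6.98 in the low libraries and 6.85 to 7.10 in the high ones) and Mxi1 (8.50 to 8.76 and 8.33 to 8.71), overlapped between the sets.

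Known MYC target genes of ribosome production and metabolism showed no called gene: 0 of 15 passed in limma in any comparison, and 0 of 15 separated the low from the high libraries. Over the 11 libraries 0 had an unadjusted p under 0.05, against 12.7% of all genes for DKO minus no-Cre and 15.9% for DKO minus Math1-Cre. Over 15 libraries 1 did for DKO minus no-Cre and 2 for DKO minus Math1-Cre, against 17.4% and 23% of all genes. The median difference of these target genes, low minus high, was -0.07. Of all genes at most 1.08% were called in any of these comparisons. Nop56, a nucleolar protein gene, was 9.28 to 9.49 in the low libraries and 9.30 to 9.81 in the high ones, Ncl, which encodes nucleolin, 10.32 to 10.53 and 10.21 to 10.56, and Odc1, of polyamine synthesis, 8.54 to 8.70 and 8.58 to 8.90. Of 11 genes that act on the turnover of MYC proteins or D cyclins, 1 was called, the mitotic kinase gene Aurka, whose product also stabilises MYCN. It was lower in DKO than in no-Cre over the 11 libraries (-0.78 ± 0.16, limma adjusted p = 0.0437), where 0.64% of all genes were called lower. Fbxw7, which encodes the ubiquitin ligase subunit that recognises MYC proteins phosphorylated by Gsk-3, was 7.90 to 8.06 in the low libraries and 7.74 to 8.31 in the high ones.

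Of 7 CDK inhibitor genes 1 was called, Cdkn1a, which encodes p21. It was 10.86 to 11.08 in the low libraries and 9.54 to 9.93 in the high ones, where 0.663% of all genes lay wholly higher in the low ones. In DKO it was higher by 1.23 ± 0.11 than in no-Cre over the 11 libraries (limma adjusted p = 0.000164), where 0.437% of all genes were called higher. Cdkn1b, which encodes p27, was 8.28 to 8.70 and 8.40 to 9.18, and differed by -0.46 ± 0.12 (limma adjusted p = 0.103). Of the INK4 genes, whose products bind CDK4 and CDK6, Cdkn2a and Cdkn2b lay at 3.24 to 3.58 and 3.67 to 4.06 over all libraries, at background. Cdkn2c and Cdkn2d lay above it. Cdkn2c was 5.91 to 6.21 in the low libraries and 6.18 to 6.82 in the high ones, and Cdkn2d 6.21 to 6.67 and 6.17 to 6.89. Their differences of medians, low minus high, were -0.25 and -0.28. Against no-Cre alone Cdkn2c lay wholly lower in the low libraries, as did 1.89% of all genes.

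**Figure D4:**
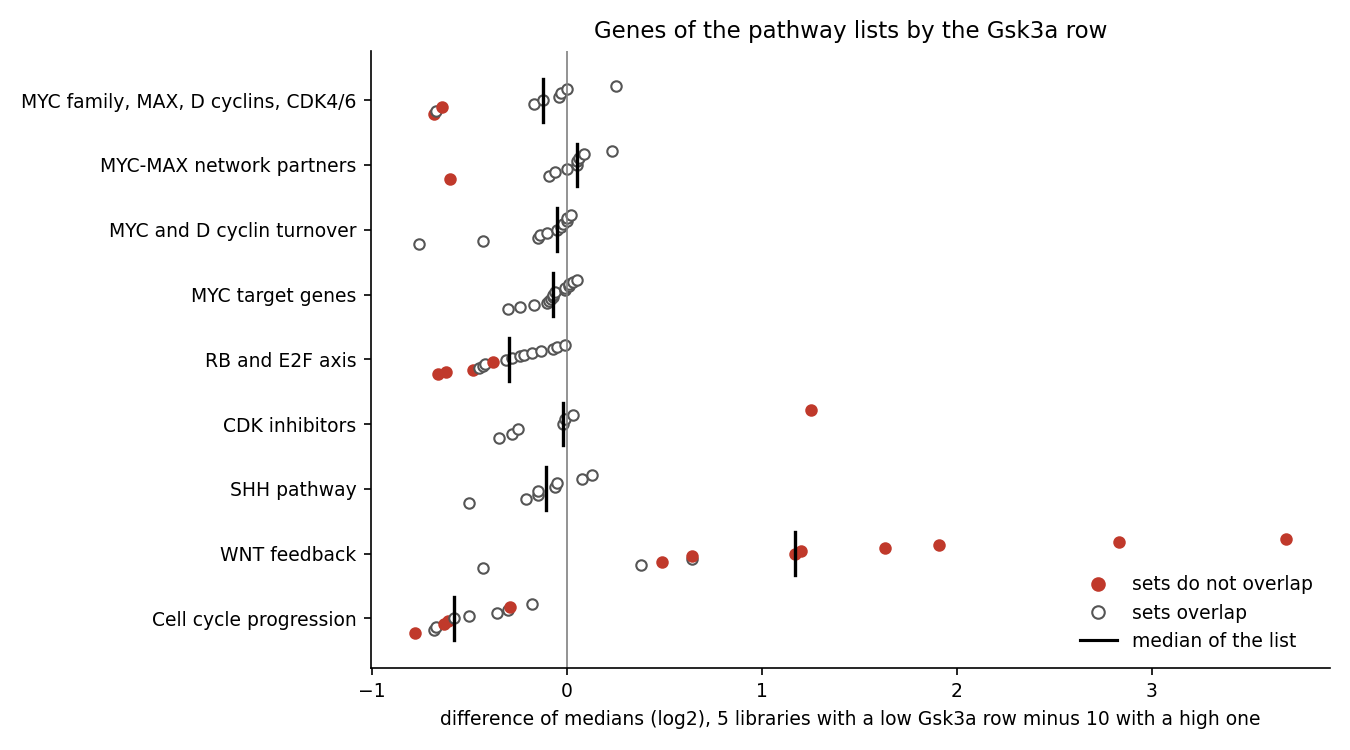
Each point is 1 gene, placed by the difference of medians (x axis, log2) between the 5 libraries with a low and the 10 with a high Gsk3a row, in rows of gene lists, with the list's median as a bar and filled red points where the sets do not overlap. The lists of WNT feedback and of cell cycle progression stand at opposite ends, with medians of +1.17 and -0.58, and Mycn, Ccnd1 and Cdk6 lie at -0.64 to -0.68.

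The genes most like each member were found by Pearson correlation, over the 15 libraries, of levels less the mean of the title group, among 9694 other genes with a mean level of at least 6. These are the highest of many correlations and a description only, and the split by the Gsk3a row within the DKO and Math1-Cre groups enters all of them. For Mycn they were Nhlh1 (r = 0.93), Sema7a (0.92) and Prdm8 (0.91). For Ccnd1 they were Map3k1 (0.96), Peli2 (0.95) and Adamts6 (0.95), and for Cdk6 Gab1, Ncapg2 and Nectin3 (0.95 each). The 3 members thus had different closest genes. The closest to Ccnd2 were Adamtsl1 (0.90), Ints9 (0.90) and P4hb (0.89), to Ccnd3 Hgh1 (0.94), Igf2r (0.94) and Slc13a4 (0.93), and to Cdk4 Prex2 (0.89), Rbl1 (0.89) and Parpbp (0.88). For Myc they were Chrnb2 (0.88), Rac3 (0.85) and Pcdh19 (0.84), for Mycl Zfp821 (0.85), Hnrnpa0 (0.81) and Fut10 (0.76), and for Max Lamc1 (0.91), Eif3h (0.88) and Zik1 (0.88). Leaving out the 2 libraries farthest from the median of the member left r at 0.94 to 0.96 for the Ccnd1 genes, but at 0.57 for Hnrnpa0 with Mycl.

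Promoters are shown for Mycn and Cdk6, with differences of medians, low minus high, of -0.68 and -0.67, and for Cdk4, with -0.12. RefSeq promoter sequences (GRCm38.p6, 250 bases before to 50 after the gene start) were found for 6 of 9 members. Capitals mark matches on either strand to CACGTG, the E-box of MYC and MAX, TTTNNCGC for E2F, and CTTTGNT for TCF and LEF factors of the WNT pathway. The motif GACCACCCA for GLI factors of the SHH pathway, had no match in these 3 windows. The windows are chr12:12941787-12942086 (minus strand) for Mycn, chr5:3343643-3343942 (plus strand) for Cdk6 and chr10:127063285-127063584 (plus strand) for Cdk4.
Mycn: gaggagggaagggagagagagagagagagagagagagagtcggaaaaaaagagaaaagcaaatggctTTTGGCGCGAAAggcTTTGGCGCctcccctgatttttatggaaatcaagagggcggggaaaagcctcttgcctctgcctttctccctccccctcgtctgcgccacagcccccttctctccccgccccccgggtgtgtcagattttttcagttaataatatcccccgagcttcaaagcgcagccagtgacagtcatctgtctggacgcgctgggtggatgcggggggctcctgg
Cdk6: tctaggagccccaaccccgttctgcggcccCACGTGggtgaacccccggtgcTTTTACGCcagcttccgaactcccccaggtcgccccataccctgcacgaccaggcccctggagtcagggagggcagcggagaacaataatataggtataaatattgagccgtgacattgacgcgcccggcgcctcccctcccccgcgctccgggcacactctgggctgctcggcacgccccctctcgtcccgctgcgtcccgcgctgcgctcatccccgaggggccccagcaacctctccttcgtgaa
Cdk4: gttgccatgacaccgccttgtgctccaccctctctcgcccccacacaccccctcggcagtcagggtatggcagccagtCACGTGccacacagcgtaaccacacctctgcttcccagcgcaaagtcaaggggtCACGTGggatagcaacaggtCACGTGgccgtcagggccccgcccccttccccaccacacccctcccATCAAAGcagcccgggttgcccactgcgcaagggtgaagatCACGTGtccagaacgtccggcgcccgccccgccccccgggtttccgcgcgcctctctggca

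Mycn held 3 matches to the E2F motif, of which the first 2 overlap on opposite strands, and no E-box. Cdk6 held 1 E-box and 1 E2F match. Cdk4, a known MYC target, held 4 E-boxes and 1 TCF and LEF match on the opposite strand. Of 32851 promoters of this length, 7.15% held at least 1 E-box and 0.0244% 4 or more, 5.17% held at least 1 E2F match and 0.0365% 3 or more, 18.6% held the TCF and LEF motif and 0.253% the GLI motif. The E-box reads the same on both strands and was counted once. Max held 1 E-box, CACGTG, and Mycl and the 2 promoters of Ccnd3 none of the 4 motifs. A match is a run of letters and does not show that a factor binds there.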

How the data were processed

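RNA of 15 libraries was hybridised to arrays, 1 per library; per the labels the RNA integrity number was 7.5 or more. The deposited values are log2 expression per array row. The tools named in the submitters' processing notes are RMA and Partek 6.6, with build mm9, and no settings are stated. The values were used as deposited.

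Of 41345 rows, 23521 had 1 gene symbol, and the row with the highest mean stood for each of 22180 genes, named through GRCm38.p6. One limma model (limma 3.58.1, R 4.3.3) with a mean per title group was fitted to all 15 libraries (12 residual degrees of freedom), and again to 11 (8). P-values are two-sided, Benjamini-Hochberg over all genes, threshold 0.05. The fit was tested on simulated data. The number of arrays limits the precision. Named genes were the 9 members, up to 4 called genes of each pathway list, fixed readouts such as Gli1, Axin2 and Mki67, and the 3 genes most like each member. Mxi1, Mnt, Nop56, Ncl, Odc1, Fbxw7, E2f7, Cdkn2a, Cdkn2b, Cdkn2c, Cdkn2d, Lgr5, Nhlh1, Barhl1, Sfrp1, Pax6, Zic2, Zic1, Neurod1, Grin2c and Gabra6 were named after their values were seen. The members and lists were chosen with earlier results of these data known. Same-numbered libraries did not deviate together (correlations of -0.30 to 0.30), so replicate numbers were not used as pairs. Libraries numbered 5 share the code cg1724 in their descriptions. Alternatives covered scaling, filtering, moderation, the shared code, array spread and single libraries.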

Additional observations from a re-analysis of the deposited data

Results flagged for a closer look

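In 27 groups of 5 libraries (9 genes in 3 groups), 3 held a library far from the other 4, where chance flags about 1 in 20 groups. Ccnd2 in Math1-Cre 5 was 10.41, against 9.81 to 9.97 in the other Math1-Cre libraries, and Ccnd3 in the same library was 8.02, against 7.60 to 7.67. Max in DKO 1 was 9.72, with the other DKO libraries all listed at 9.77. Where the other 4 values are tied any departure is flagged, so the rate of 1 in 20 does not hold for Max.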

How the results depend on the processing

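The counts of members past the threshold were 0 over 15 libraries in each of the 3 comparisons, and 0 under every alternative but one: with the 4 libraries that contradict their label by the Gsk3a row left out, the count was 1 (Mycn) for DKO minus no-Cre and 1 (Mycn) for DKO minus Math1-Cre. Over the 11 libraries, DKO minus no-Cre counted 1, and 0 after quantile normalization, after centring on the median, with only the compared groups, with the replicate block or with array spread as covariate. It counted 2 with trend and robust moderation (Mycn and Ccnd1) and 3 with array weights (with Cdk6 too), where 1.2% and 9.8% of all genes were called, against 1.08% with none of these changes. Leaving out 1 library gave 0 to 3, with 3 reached without no-Cre 4 (4.78% of all genes). DKO minus Math1-Cre over the 11 libraries counted 1, and 0 under those 5 settings, with the code cg1724 as covariate, without the narrow arrays (which leaves DKO 2 alone, assumed to vary like the other groups) or with the mean of all rows of a gene. It counted 2 with array weights (Mycn and Cdk6), where 9.01% of all genes were called, against 0.541%, and leaving out 1 library gave 0 to 1. The replicate block gave Mycn differences of -0.56 and -0.64; the numbers do not pair the samples. The Mycn difference itself stayed between -0.52 and -0.73 from no-Cre when single libraries were left out. The number of members that separate low from high Gsk3a rows was 2, and 4 without the narrow arrays, an alternative chosen after seeing the data. Leaving out libraries cannot lower this number. With each array centred on its median, Cdk6 took the place of Ccnd1 beside Mycn among the members that separate. Centring moved the median of all genes up by 0.10 for DKO minus no-Cre and 0.14 for DKO minus Math1-Cre. Of 1323 member differences under alternatives, 1287 kept their side of the threshold, 28 lost and 8 gained a call, and 0 called ones changed sign. All 28 losses fell on the Mycn calls over the 11 libraries, the only calls to begin with. The other differences began uncalled and had no call to lose, so the 1287 do not measure how stable the calls are. Within the code cg1724, DKO 5 minus no-Cre 5 was -0.47 for Mycn, -0.68 for Ccnd1 and -0.81 for Cdk6. Over all genes, calls for DKO minus no-Cre over 15 libraries numbered 16, 0 with array spread as covariate, 739 with array weights, 804 without the narrow arrays and 1546 without no-Cre 4 alone. The cause of these changes was not tested.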
